A study of Rattus with 8 samples.

Results

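The genes described here encode 6 gap junction proteins, or connexins, of astrocytes and oligodendrocytes. They were taken by their symbols, Gja1, Gjb6, Gjb2, Gjb1, Gjc1 and Gjc3, from a table of 18374 genes measured by messenger RNA sequencing in cultured rat neural stem cells on day 5, and all 6 were found. The 8 libraries form 4 groups of 2. Control cells were untreated, piezoelectric cells were cultured with a piezoelectric material (one that yields electric charge when it is deformed), ultrasound cells were treated with ultrasound, and nanosticker cells were cultured with piezoelectric nanostickers. Whether the nanosticker cells were also sonicated, and in what the nanostickers differ from the other material, is not in the labels. They give no strain, age or brain region, and nothing in them says that paired libraries are separate cultures. The p-values therefore reflect the spread among the libraries sequenced, and that spread may be technical.

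Connexin subunits assemble into hemichannels in the cell membrane, and hemichannels of neighbouring cells dock to form a channel that lets ions and small metabolites pass between the cells. Astrocytes are coupled to each other mainly through connexin 43 (Gja1) and, in the mature brain, connexin 30 (Gjb6), with connexin 26 (Gjb2) reported in astrocytes and abundant in the meninges. Oligodendrocytes make connexin 32 (Gjb1), which takes part in their coupling to other glia, and, in rodents, connexin 29 (Gjc3), a protein of myelinating glia. Connexin 45 (Gjc1) is known from neurons, the blood vessel wall and the embryonic heart. In neural progenitors connexin 43 also serves adhesion during migration.

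Library totals ran from 15239133 to 15628667 counts. Both neural stem cell genes were present in each library, the transcription factor gene Sox2 at 262 to 418 CPM and the filament gene Nes at 309 to 483 CPM (CPM is a count rescaled to a common library size, with scaling by the trimmed mean of M values). The 15 astrocyte markers summed to between 8231 and 13258 CPM and the 15 oligodendrocyte markers to between 8312 and 27244 CPM. None of these markers was at 0 in any library, so the cultures labelled as neural stem cells also held transcripts from both marker lists. Which cells made them was not tested. The control libraries differed along transcript length: across 13756 genes, which share their libraries and are no replicates, length had a Spearman correlation of -0.457 with the log2 ratio of the first control to the second, against 0.0990 to 0.200 in the other groups. For the tested connexins of this set and the pannexin genes Panx1 and Panx2, calls against control that change without either control library are given with that value. Calls of single marker and partner genes were not followed in fits without a control library, and may change there.

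Gja1 was the most abundant of the 6 connexins in every library. Its deposited TPM, a level per transcript length, was 302 and 321 in the control libraries, 277 and 265 in the piezoelectric, 212 and 210.4 in the ultrasound and 74.8 and 75.7 in the nanosticker libraries. The 4 groups did not overlap, and the nanosticker libraries were far below the rest. In bulk RNA such as this, fewer cells of a type and less transcript per cell cannot be told apart. Gjb1 had a TPM of 14.0 and 16.4 in control, 13.3 and 14.6 in piezoelectric, 21.0 and 20.5 in ultrasound and 26.7 and 34.2 in nanosticker libraries. Its nanosticker and ultrasound values all lay above those of the control and piezoelectric groups, which overlapped.

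Gjc3 had a TPM of 10.97 and 17.0 in control, 15.8 and 13.5 in piezoelectric, 17.7 and 19.4 in ultrasound and 33.2 and 29.6 in nanosticker libraries. The nanosticker libraries stood apart at the top, and the control libraries differed from each other more than any other pair. Gjc1 had a TPM of 5.07 and 5.70 in control, 5.53 and 4.92 in piezoelectric, 5.90 and 6.27 in ultrasound and 3.84 and 3.59 in nanosticker libraries, so its lowest values were those of the nanosticker group. Gjb2 was a minor transcript with 1.89 and 1.37 in control, 1.05 and 1.17 in piezoelectric, 0.830 and 0.850 in ultrasound and 1.19 and 1.49 in nanosticker libraries. Gjb6 was between 0.0600 and 0.410 TPM in all libraries.

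In order of mean TPM the control group ran Gja1 (312 ± 13.4, SD, n = 2), Gjb1 (15.2 ± 1.67), Gjc3 (14.0 ± 4.26), Gjc1 (5.38 ± 0.445), Gjb2 (1.63 ± 0.368) and Gjb6 (0.105 ± 0.0495). The order was the same in the other groups except for Gjb1 and Gjc3. These neighbours overlapped in the control, piezoelectric and nanosticker libraries, and in the ultrasound libraries Gjb1 lay above Gjc3. The other neighbours in the order did not overlap within any group.

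**Figure D1:**
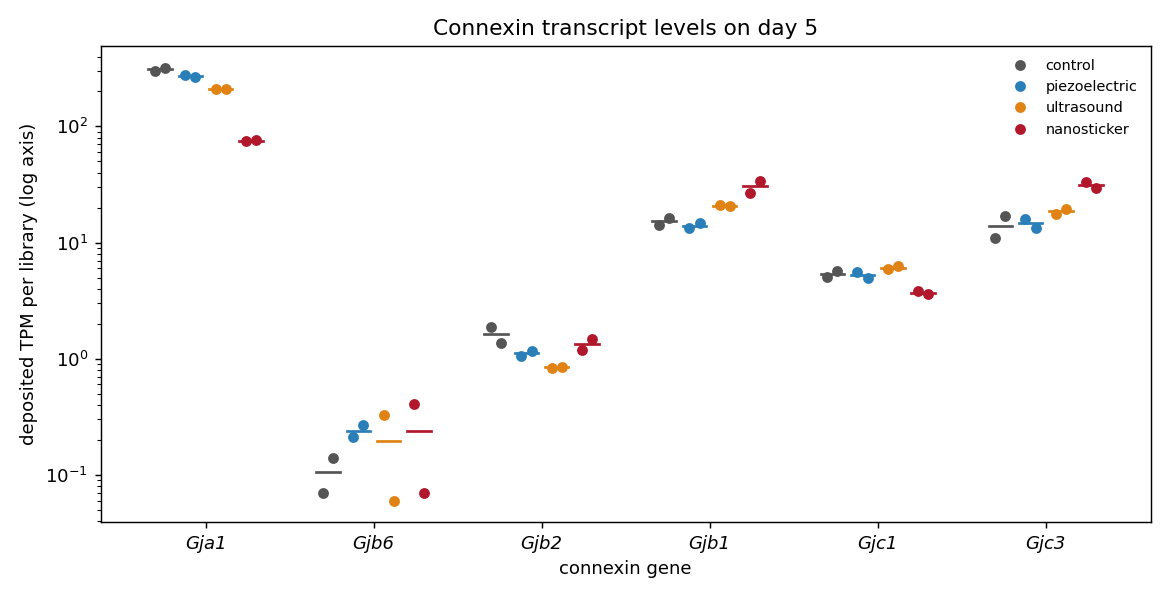
Deposited TPM of the 6 connexins in each of the 8 libraries on a log axis, coloured by group, with a short line at the mean of each group of 2. Gja1 lies between 74.8 and 321 and is lowest in the nanosticker libraries, Gjb1 and Gjc3 are highest there, and Gjb6 stays at or below 0.410.

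The summed TPM of the 6 connexins was 334 and 362 in the control libraries, 313 and 299.8 in the piezoelectric, 257 and 258 in the ultrasound and 140.1 and 145 in the nanosticker libraries. Gja1 made up 90.4% and 88.8% of that sum in control cells and 88.5% in both piezoelectric libraries. It made up 82.2% and 81.7% in ultrasound libraries and 53.4% and 52.3% in nanosticker libraries. The shares of Gjb1 and Gjc3 were larger where that of Gja1 was smaller. Gjb1 was 4.2% and 4.53% of the sum in control cells and 19.1% and 23.7% in the nanosticker group, and Gjc3 was 3.28% and 4.7% in control cells and 23.7% and 20.4% in the nanosticker group. There were 21.5 and 19.6 Gja1 transcripts per Gjb1 transcript in control libraries, 10.1 and 10.3 in ultrasound and 2.80 and 2.21 in nanosticker libraries.

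**Figure D2:**
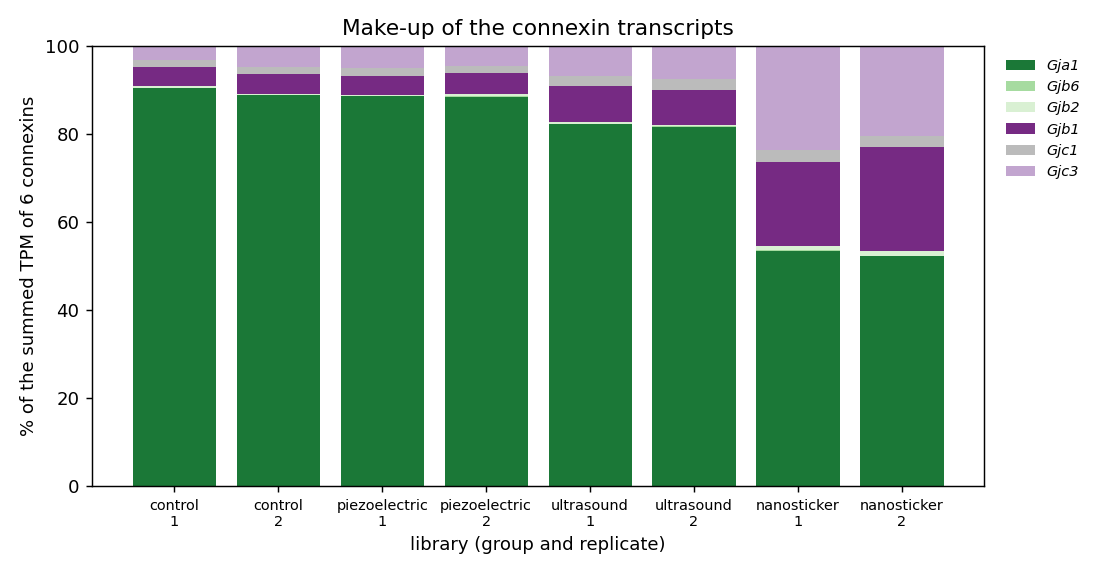
Share of each connexin in the summed TPM of the 6 genes, as percent, for each library named by group and replicate. The Gja1 segment takes 88.5% to 90.4% in control and piezoelectric libraries and 52.3% to 53.4% in nanosticker libraries, where Gjb1 and Gjc3 take most of the rest.

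Counts of 5 of the 6 connexins were tested, and Gjb6 had too few. The comparisons with control share the same control libraries and are not independent of each other. The piezoelectric group had 0 of 5 tested connexins higher and 0 lower, against 0.16% of 14336 tested genes higher and 0.0698% lower (edgeR's quasi-likelihood test, adjusted p below 0.05). Of these, 1 (Gja1) had an unadjusted p below 0.05 there, and DESeq2 also called 0. The ultrasound group had 1 of 5 higher and 1 lower, against 4.03% and 3.16% of all tested genes. The nanosticker group had 2 of 5 higher and 2 lower, against 19.8% and 17.7% of all tested genes (2837 and 2541 genes, or 2277 and 3221 when libraries were scaled by size alone). The share among these 5 genes was not tested against that background. The median log2 fold change of the 5 was -0.11, 0.21 and -0.18 in the 3 comparisons, beside 0.0046 to 0.0076 over all tested genes.

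Gja1, the main gap junction gene of astrocytes, had the largest fitted change of the tested connexins in the nanosticker group. In CPM it stood at 587 and 579.9 in control cells, 519.6 and 507 in piezoelectric, 406 and 416 in ultrasound and 145 and 146 in nanosticker libraries. The groups did not overlap, and each pair differed by little. In the nanosticker group Gja1 fell by 2.0 ± 0.05 (SE) on the log2 scale, a fall of 4.0-fold (edgeR adjusted p = 6.55e-11). Of the 14336 tested genes, 181 had a lower log2 fold change. In the ultrasound group it fell by 0.50 ± 0.05, or 1.42-fold (adjusted p = 6.71e-05). Both falls passed the test under all 17 alternatives, among them the removal of each library in turn. In the piezoelectric group the log2 fold change was -0.18 ± 0.05 and did not pass (adjusted p = 0.229). It passed without control replicate 2 (adjusted p = 0.0108) and with the trend along transcript length removed (adjusted p = 0.0256).

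Gjb6, the partner of Gja1 in mature astrocytes, had 1 and 2 counts in the control libraries, 3 and 4 in the piezoelectric, 5 and 1 in the ultrasound and 8 and 1 in the nanosticker libraries. Values overlapped between the control, ultrasound and nanosticker groups, while both piezoelectric libraries lay above both controls by a few counts. Summed over a group this was 3 counts in control cells (exact Poisson 95% interval 0.619 to 8.77) and 9 in the nanosticker group (4.12 to 17.1), and the intervals, which cover counting error only, overlapped. Gjb6 had too few counts at this depth to be tested for a difference. Gjb2 had 18 to 39 counts per library. Its log2 fold change was -0.50 ± 0.30 in the piezoelectric, -0.88 ± 0.31 in the ultrasound and -0.18 ± 0.29 in the nanosticker group, with adjusted p of 0.723, 0.123 and 0.664 by edgeR. An interval of 2 SE to each side ran from -1.5 to -0.26 in the ultrasound group and from -0.77 to 0.40 in the nanosticker group. These values lean on single control libraries. Without control replicate 1 they were -0.21, -0.59 and 0.10, and did not pass (edgeR adjusted p of 0.898, 0.391 and 0.863). Without control replicate 2 they were -0.74, -1.12 and -0.43, of which the ultrasound value passed (edgeR adjusted p of 0.240, 0.0421 and 0.357). The nanosticker value was 0.021 without nanosticker replicate 1.

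In the nanosticker group the oligodendrocyte connexins Gjb1 and Gjc3 rose while Gja1 fell. Gjb1, the gene of connexin 32, stood at 12.5 and 13.6 CPM in control cells, 11.4 and 12.8 in piezoelectric, 18.6 and 18.6 in ultrasound and 23.8 and 30.5 in nanosticker libraries. It rose 2.08-fold in the nanosticker group, a log2 fold change of 1.06 ± 0.12 (adjusted p = 2.16e-05 by edgeR), and that call held under all 17 alternatives. In the ultrasound group it rose 1.42-fold (0.51 ± 0.13, adjusted p = 0.0301). That call ended by DESeq2 (adjusted p = 0.128), with only the 2 groups in the fit (0.0599), without ultrasound replicate 1 (0.185) or 2 (0.178) and without piezoelectric replicate 2 (0.0513). The piezoelectric value of -0.11 ± 0.13 did not pass (adjusted p = 0.884).

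Gjc3, the gene of connexin 29, stood at 16.6 and 23.9 CPM in control cells, 23.1 and 20.02 in piezoelectric, 26.5 and 29.9 in ultrasound and 50.2 and 44.6 in nanosticker libraries. The nanosticker and ultrasound libraries all lay above both controls. In the nanosticker group Gjc3 rose 2.34-fold, a log2 fold change of 1.23 ± 0.16 (adjusted p = 0.000518 by edgeR), under all 17 alternatives as well. Its ultrasound value of 0.48 ± 0.17 did not pass (adjusted p = 0.157), but was 0.76 and passed without control replicate 2 (adjusted p = 0.000140). It was 0.24 without control replicate 1. The piezoelectric value was 0.09 ± 0.17 (adjusted p = 0.933), and turned to -0.15 without control replicate 1 and to -0.02 without piezoelectric replicate 1.

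Gjc1, the gene of connexin 45, had 86 counts in each control library, 90 and 79 in the piezoelectric, 95 and 106 in the ultrasound and 60 and 58 in the nanosticker libraries. The nanosticker libraries were the lowest of the 8. Its log2 fold change there was -0.49 ± 0.17 with an adjusted p of 0.0374 by edgeR. The call is a weak one, since it ended under 11 of the 17 alternatives with adjusted p between 0.0506 and 0.252, among them DESeq2 (0.252), no filter on low counts (0.0526), the replicate block (0.0531), only the 2 groups in the fit (0.0723) and the removal of either control (0.0746 and 0.0738), either nanosticker (0.125 and 0.140), either ultrasound library (0.0540 and 0.0541) or piezoelectric replicate 1 (0.0506). The value itself stayed between -0.55 and -0.48. Against control the ultrasound value was 0.21 ± 0.16 (adjusted p = 0.536) and the piezoelectric value -0.04 ± 0.16 (adjusted p = 0.973).

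**Figure D3:**
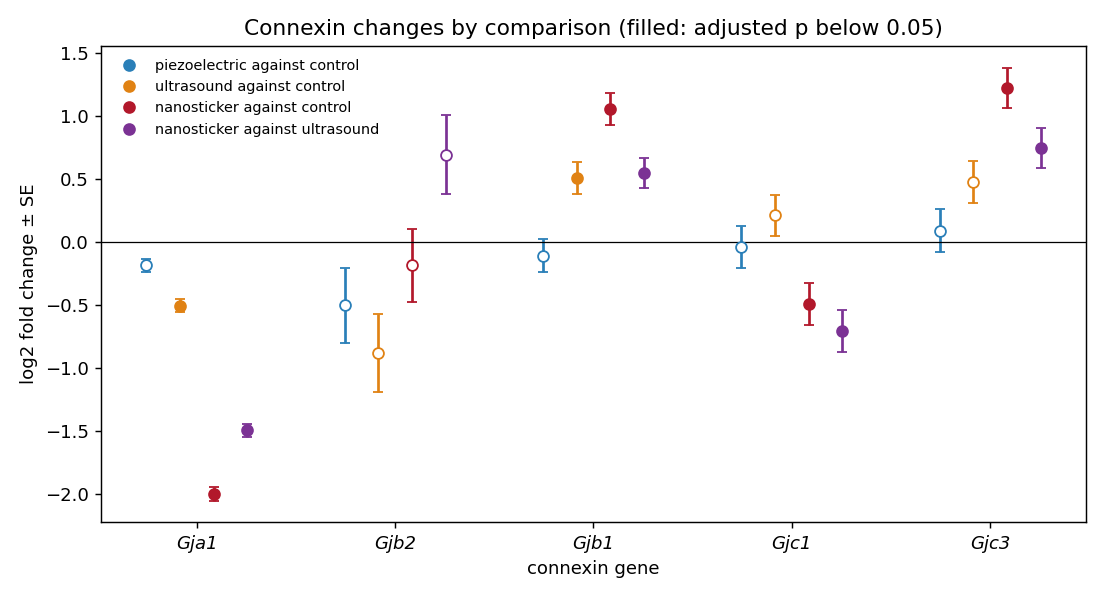
Log2 fold change with its standard error for the 5 tested connexins in 4 comparisons, where filled points have an adjusted p below 0.05 by edgeR and open points do not. Gja1 lies at -2.0 for nanosticker against control, while Gjb1 and Gjc3 lie at 1.06 and 1.23 in the same comparison.

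The treated groups were also compared with each other. Against the ultrasound group the nanosticker group had 2 of 5 connexins higher and 2 lower, beside 17.6% and 16.9% of all tested genes. Gja1 fell by 1.5 ± 0.05 (adjusted p = 1.02e-09 by edgeR) and Gjc1 by 0.71 ± 0.17 (adjusted p = 0.00555). Gjb1 rose by 0.55 ± 0.12 (adjusted p = 0.00336) and Gjc3 by 0.75 ± 0.16 (adjusted p = 0.00683). Of these, the call of Gjb1 ended without nanosticker replicate 2 (0.36, adjusted p = 0.0684) and that of Gjc3 without ultrasound replicate 1 (adjusted p = 0.0617) or nanosticker replicate 1 (0.0505). The call of Gjc1 ended without ultrasound replicate 2 (0.0541) and by DESeq2 (0.0814). Gjb2 was at 0.70 ± 0.31 and did not pass (adjusted p = 0.109).

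Against the piezoelectric group the nanosticker group had 2 of 5 connexins higher and 1 lower, beside 18.9% and 17.4% of all tested genes. Gja1 fell by 1.82 ± 0.05 (adjusted p = 1.23e-10 by edgeR), Gjb1 rose by 1.17 ± 0.13 (adjusted p = 1.01e-05) and Gjc3 rose by 1.13 ± 0.16 (adjusted p = 0.000809), all under each of the 17 alternatives. Gjc1, at -0.45 ± 0.17, did not pass (adjusted p = 0.0533) but did without either control library (0.0426 and 0.0445) and with library size alone as the scaling (0.0332). Ultrasound against piezoelectric had 1 of 5 higher and 1 lower, beside 2.13% and 1.37% of all tested genes. Gja1 fell by 0.32 ± 0.05 (adjusted p = 0.00276), a call that ended without ultrasound replicate 1 (0.0844) or 2 (0.0525). Gjb1 rose by 0.62 ± 0.13 (adjusted p = 0.0183), a call that ended without any 1 of the 4 libraries compared (0.0964 to 0.197) and by DESeq2 (0.0507). Gjc3 at 0.39 ± 0.16 did not pass (adjusted p = 0.375), but did without either control library (0.00949 and 0.0101) and in a fit of just those libraries (0.00968).

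The change in the nanosticker group was set against the sum of the piezoelectric and ultrasound changes on the log2 scale, a comparison of groups that does not assume the nanosticker cells were sonicated. Of 5 connexins 1 departed upwards and 1 downwards, beside 11.8% and 11.6% of all tested genes. Gja1 was lower than the sum by 1.31 ± 0.07 (log2 departure -1.31, adjusted p = 1.03e-07 by edgeR), under all 16 alternatives. Gjb1 was higher than the sum by 0.66 ± 0.18 (adjusted p = 0.0180), a call that ended by DESeq2 (0.0708) and without piezoelectric replicate 1 (0.0885), either ultrasound library (0.0686 and 0.0689) or nanosticker replicate 2 (0.0953). Gjc3 had a departure of 0.66 ± 0.23 that did not pass (adjusted p = 0.0800) but did by DESeq2 (0.0417) and without control replicate 1 (0.89, adjusted p = 5.22e-05). Its departure was 0.37 without control replicate 2. Gjb2 at 1.20 ± 0.43 (adjusted p = 0.0648) passed without control replicate 2 (1.44, adjusted p = 0.0257) and with the length trend removed (0.0492). Gjc1 was at -0.67 ± 0.23 (adjusted p = 0.0576) and passed with library size alone (0.0470).

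Astrocyte markers were set beside Gja1. In the nanosticker group 2 of 15 astrocyte markers rose and 11 fell, with a median log2 fold change of -0.50, beside 19.8% higher and 17.7% lower over all tested genes. The members that fell included the water channel gene Aqp4 (-1.17), the folate enzyme gene Aldh1l1 (-1.07) and the glutamate transporter gene Slc1a3 (-0.85). The potassium channel gene Kcnj10 (0.83) and Glul, glutamine synthetase (0.46), rose. Gja1, at -2.0, was below all 15 of these markers. The 15 summed to 11406 and 11549.7 CPM in control, 12917 and 13258 in piezoelectric, 12157 and 12606 in ultrasound and 8231 and 8238 in nanosticker libraries. Its CPM per 1000 CPM of summed astrocyte markers was 50.8 and 50.8 in control, 39.2 and 39.2 in piezoelectric, 32.2 and 34.2 in ultrasound and 17.6 and 17.8 in nanosticker libraries. Aqp4 and Gfap together made up 27.3% to 27.9% of that sum in control, 33.1% to 35.5% in piezoelectric and ultrasound and 21.9% to 22.0% in nanosticker libraries, and Gfap went from a mean of 1519.8 CPM in control to 2506 and 2447 CPM in the piezoelectric and ultrasound groups.

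In the ultrasound group 2 of the 15 astrocyte markers rose and 6 fell (4.03% and 3.16% of all tested genes), with a median of -0.01, and Gja1 at -0.50 was below 13 of them. Gfap, the astrocyte intermediate filament, rose by 0.69 and Aqp4 by 0.20, while Aldh1l1 (-0.64), the growth factor receptor gene Fgfr3 (-0.53), the transcription factor gene Sox9 (-0.41) and Glul (-0.29) fell along with Gja1. In the piezoelectric group 1 of 15 rose (Gfap, 0.72) and 0 fell (0.16% and 0.0698% of all tested genes), with a median of 0.11, and Gja1 at -0.18 was below 13 of them. The part of the astrocyte share of the culture in the Gja1 values was not tested. Mlc1 and Hepacam, which encode membrane partners at the contacts between astrocytes, fell in the nanosticker group (-0.64 and -0.27).

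**Figure D4:**
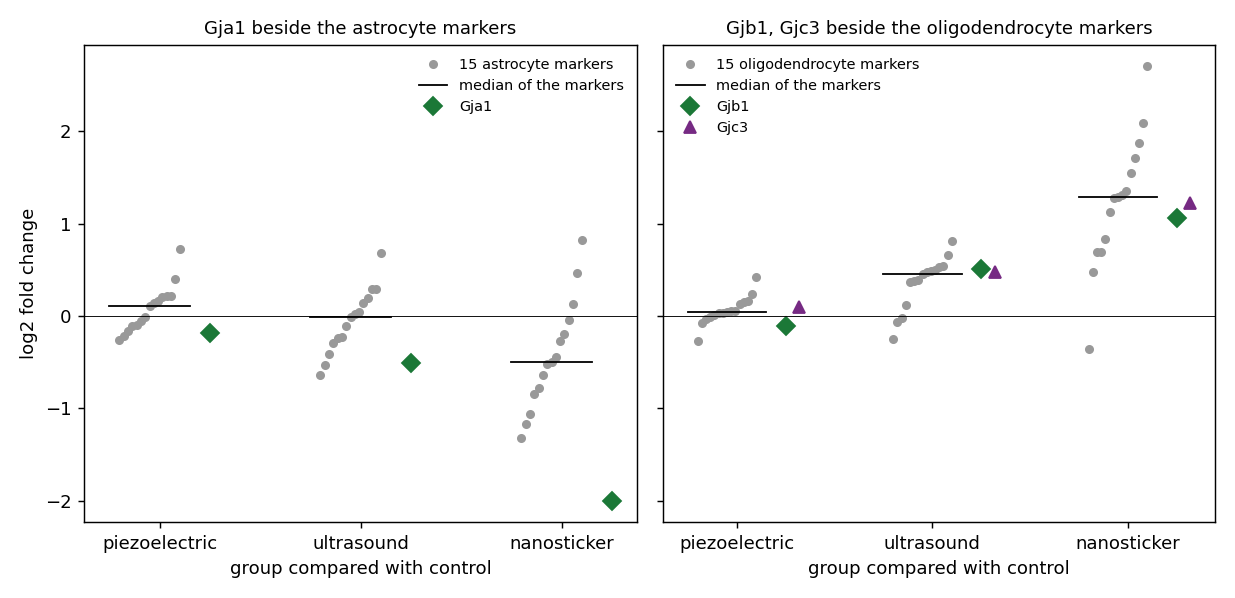
Log2 fold change against control, for Gja1 beside 15 astrocyte markers (left) and for Gjb1 and Gjc3 beside 15 oligodendrocyte markers (right). Grey points are single markers and the black line is their median, which is -0.50 (astrocyte) and 1.29 (oligodendrocyte) in the nanosticker group, where Gja1 lies at -2.0 below all astrocyte markers and Gjb1 and Gjc3 lie at 1.06 and 1.23.

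Oligodendrocyte markers were set beside Gjb1 and Gjc3. In the nanosticker group 14 of 15 rose and 1 fell, with a median of 1.29, beside 19.8% and 17.7% of all tested genes. The rises were 2.10 for the myelin-associated glycoprotein gene Mag and 1.87 for Mbp, myelin basic protein, and Mal (-0.36) was the member that fell. Gjb1 (1.06) was above 5 of the 15 and below 10, and Gjc3 (1.23) above 6 and below 9. In the ultrasound group 11 of 15 rose and 0 fell (4.03% and 3.16% of all tested genes), with a median of 0.46, and Gjb1 (0.51) was above 11 of them. In the piezoelectric group 0 rose and 0 fell. The 15 summed to 8312 and 8322 CPM in control, 8391 and 8475 in piezoelectric, 10600.3 and 10812 in ultrasound and 26923 and 27244 in nanosticker libraries. The part of the oligodendrocyte share of the culture in the Gjb1 and Gjc3 values was not tested.

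Relative to the summed oligodendrocyte markers, the connexins were lowest in the nanosticker group. Gjb1 CPM per 1000 CPM of these markers was 1.51 and 1.63 in control, 1.36 and 1.51 in piezoelectric, 1.75 and 1.72 in ultrasound and 0.875 and 1.13 in nanosticker libraries. Gjc3 was at 2.0 and 2.87 in control, 2.76 and 2.36 in piezoelectric, 2.50 and 2.76 in ultrasound and 1.84 and 1.66 in nanosticker libraries. In both genes the nanosticker libraries lay below the other 6. Mbp alone made up 43.4% to 50.8% of this marker sum.

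**Figure D5:**
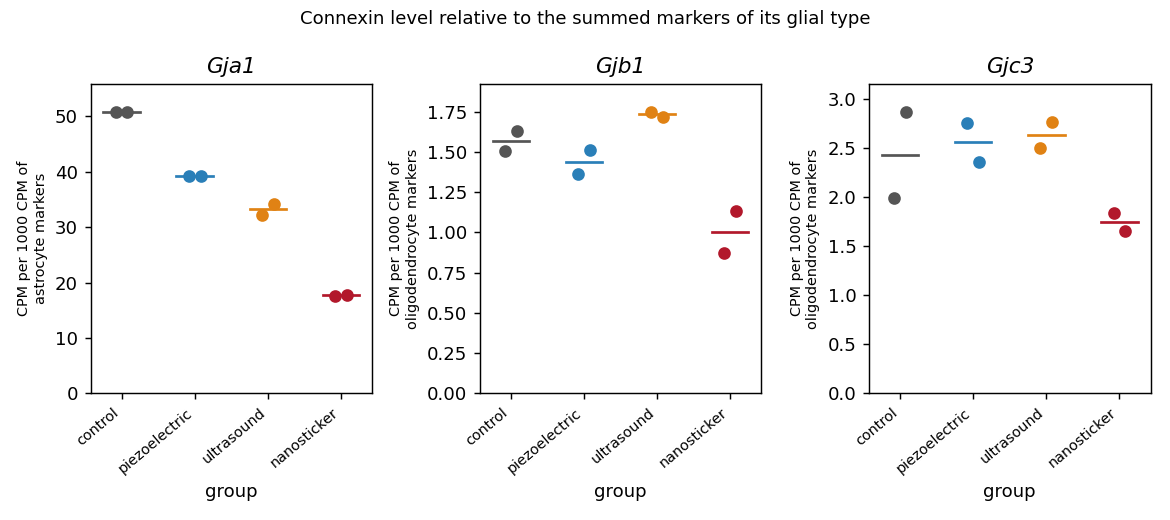
CPM of 3 connexins per 1000 CPM of the summed markers of astrocytes (Gja1) or oligodendrocytes (Gjb1, Gjc3), 1 point per library with a line at each group mean and the axis from 0. Gja1 goes from 50.8 in control to 17.6 and 17.8 in nanosticker libraries, and Gjb1 and Gjc3 are lowest in the nanosticker group.

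Markers of other cells that use these connexins were also counted, and their part in the connexin values was not tested. Their nanosticker counts stand beside 19.8% higher and 17.7% lower over all tested genes. Precursor markers of the oligodendrocyte lineage had 6 of 10 higher and 0 lower in the nanosticker group, with a median of 0.55. They summed to 5483 and 5499.5 CPM there against 3153 to 3770 CPM in the other libraries. Bcas1 (mean 1764 CPM) and Olig1 (mean 1248 CPM) were large parts of that nanosticker sum. Those that rose included Sox10 (1.99) and Bcas1 (1.00), while Pdgfra (0.04 ± 0.06, adjusted p = 0.677 by edgeR) did not pass. Schwann cells of peripheral nerve also make Gjb1 and Gjc3. Of 9 tested Schwann cell markers 6 rose and 2 fell in the nanosticker group. Pmp22, a peripheral myelin gene, fell by 0.98, and the sum of the 10 markers was 311 to 318 CPM in that group and 336 to 385 CPM in the others. Egr2, the transcription factor that drives Schwann cell myelination, was at 4.11 to 5.09 CPM in all group means.

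Meningeal fibroblasts make Gjb2 and Gja1. Their 12 markers summed to 152 and 160 CPM in control, 226 and 261 in piezoelectric, 231 and 235 in ultrasound and 290.4 and 295 in nanosticker libraries. Of 10 tested, 4 rose and 0 fell in the piezoelectric group (0.16% and 0.0698% of all tested genes), 5 rose and 1 fell in the ultrasound group (4.03% and 3.16%), and 5 rose and 0 fell in the nanosticker group (19.8% and 17.7%). These sums were higher in every treated library than in the controls. The 8 endothelial markers summed to 2.32 to 4.38 CPM outside the nanosticker group and to 7.82 and 8.67 CPM in it, and Kdr, a receptor for vascular endothelial growth factor, accounted for 6.81 and 7.08 CPM of the latter (mean 1.87 CPM in control, log2 fold change 1.89). Pecam1 and Cdh5, defining endothelial genes, were between 0 and 0.322 CPM in all libraries, with Cldn5 at 0 counts in control, piezoelectric and nanosticker libraries. The 8 mural cell markers, of cells in which Gjc1 is known, summed to 416 to 428 CPM in control and 304 to 318 CPM in nanosticker libraries, with 2 of 6 tested higher and 3 lower. Rgs5, a defining pericyte gene, was at 0 counts in those libraries too. Of 9 tested neuron markers 1 rose and 7 fell in the nanosticker group, with a median of -1.05, and of 12 microglia markers 0 rose and 8 fell.

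The rest of the connexin and pannexin families held 16 further genes in the table, of which 5 passed the filter on low counts. Panx1 encodes pannexin 1, a membrane channel that releases ATP and resembles connexin hemichannels in form. It stood at 404 and 521 counts in control, 457 and 422 in piezoelectric, 428 and 437 in ultrasound and 711 and 664 in nanosticker libraries. It rose by 0.62 ± 0.10 in the nanosticker group (adjusted p = 0.000440 by edgeR). Its ultrasound value of -0.11 did not pass (adjusted p = 0.667), but was -0.28 and passed without control replicate 1 (adjusted p = 0.0463) and turned to 0.09 without control replicate 2. Panx2, a pannexin of neurons and glia, was at 0.13 in the nanosticker group (adjusted p = 0.263, and 0.23 with adjusted p = 0.0363 without control replicate 2). Gja4, a connexin of blood vessels, had 5 to 15 counts per library and did not pass in any of the 3 comparisons with control. The 11 below the filter had 0 to 10 counts per library, among them Gjd2, connexin 36 of neuronal electrical synapses, with 2 to 10.

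Genes whose products bind connexins or govern their turnover were described by 22 genes, all tested. In the piezoelectric group 0 rose and 0 fell. In the ultrasound group 6 rose and 0 fell, beside 4.03% and 3.16% of all tested genes. In the nanosticker group 7 rose and 6 fell with a median of 0.05, beside 19.8% and 17.7% of all tested genes. Tjp1, the scaffold protein ZO-1 that binds the tail of connexin 43, rose by 0.43 in the nanosticker group, Cav1, caveolin 1, by 0.85, and Ybx3, a Y-box factor that binds ZO-1, by 1.99. Mapk3, the kinase ERK1, which phosphorylates connexin 43, rose by 0.92. The genes that fell included Ezr, ezrin, a linker of membrane and actin (-0.96), Cdh2, N-cadherin (-0.28), and Ctnnb1, beta-catenin (-0.25). Dbn1, drebrin (-0.61), fell too, but some of its deposited counts are not whole numbers and its value is uncertain. Ccn3, a secreted protein that binds connexin 43, rose by 1.41 in the ultrasound and by 1.21 in the nanosticker group.

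The genes whose log2 CPM over the 8 libraries ran most like that of each tested connexin were ranked by Pearson's r among 10935 genes, as a description. The 8 points are 4 pairs of replicates and share their libraries, so a difference of 1 group from the rest fixes most of r. For Gja1 the 5 closest genes were Slc6a9, Slc38a3, Plppr3, Prdx6 and Olfml1 (r from 0.997 to 0.998), and 613 genes had r above 0.95. For Gjb1 they were Dlgap5, Gde1, Sphk1, Insc and Homer3 (r from 0.980 to 0.989), and for Gjc3 Col5a2, Washc4, Slc24a2, Pcdh9 and Neto1 (r from 0.988 to 0.993). For Gjc1 they were Ccdc39, Elovl2, Nudt4, Zfp770 and Prps1 (r from 0.980 to 0.995), and for Gjb2 the 4 closest were Uck1, Necab2, Trim8 and Ttc7a (r from 0.956 to 0.985). Slc6a9 and Homer3 have counts that are not whole. These lists are not stable: leaving out 1 library kept between 0 and 5 of the 5 genes, with each library left out in turn and each connexin.

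By the Rnor 6.0 coordinates of the deposited table, Gja1 (gene identifier 24392) lies on chromosome 20 from 37876650 to 37889097 on the plus strand. Gjb1 (29584) lies on chromosome X from 71272030 to 71279973 and Gjc3 (288529) on chromosome 12 from 19166074 to 19177701, on the plus and minus strands. Gjc1 (266706) lies on chromosome 10 from 90781408 to 90912440 on the minus strand. Gjb2 (394266, plus strand) and Gjb6 (84403, minus strand) are neighbours on chromosome 15, from 37377313 to 37394494 and from 37400888 to 37411656, with 6393 bases between them, and Gja3, a lens connexin, lies 51942 bases to the left of Gjb2. The 3 genes of this cluster had low counts in all libraries, at most 39, 8 and 3 for Gjb2, Gjb6 and Gja3. None of the 6 connexins overlaps another gene of the table, and all their counts are whole numbers at a tolerance of 0.005.

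In the authors' deposited table of DESeq2 results, Gja1 had a log2 fold change of -2.02 in the nanosticker group (q = 1.78e-141) and of -0.51 in the ultrasound group (q = 8.72e-09). The authors' deposited table has 0, 1 and 3 of the 6 connexins at a q-value below 0.05 for the piezoelectric, ultrasound and nanosticker groups against control. The share of all genes below that q-value was not counted, so these numbers have no background beside them. Gjb1 in the ultrasound group (q = 0.319) and Gjc1 in the nanosticker group (q = 0.474) are not among the connexins below 0.05 there.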

How the data were processed

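The authors deposited, per the file headers, 1 table of 18374 genes holding, for each of 8 libraries, an estimated count, FPKM and TPM, on the genome build Rnor 6.0 per the submitters' processing notes. Of the deposited counts 10.5% are not whole. The sources used here name no aligner, counting tool or strand setting. Deposited TPM was used for levels between genes and deposited FPKM for transcript lengths. The authors' deposited log2 fold changes and q-values are quoted as theirs.

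Counts were rounded and fitted in R 4.3.3 with edgeR 4.0.16: filterByExpr (14336 genes kept), trimmed mean of M values scaling, 1 mean per group over 8 libraries (4 residual degrees of freedom, biological coefficient of variation 7.09%), robust two-sided quasi-likelihood tests and Benjamini-Hochberg adjustment over all tested genes, with a threshold of 0.05. The SE is the log2 fold change divided by the square root of F. The steps were tested on simulated counts. Alternatives were DESeq2 1.42.0, limma-voom 3.58.1, other scalings and filters, a replicate block, fits of only the groups compared, a correction of every library for transcript length (lowess with a span of 0.3), and fits without 1 library at a time, in which the remaining library of that group is taken to vary like the rest. Replicates of a group differed by more than counting noise (chi-square per degree of freedom from 2.47 to 10.7).

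The connexins, the gene lists (155 symbols, 154 in the table), the alternatives and the rule on which genes to name were chosen with earlier results of these data known. The rule names every connexin, other family members that passed the filter, up to 4 members of a list by adjusted p, and the 5 genes closest to each connexin by r (mean of at least 5 CPM). Some named list members, and family members below the filter, were chosen after their values were seen. No list was tested as a set. Results for some list genes are not reported here.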

Additional observations from a re-analysis of the deposited data

How the results depend on the processing

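The number of connexins called against control was 0 for piezoelectric, 2 for ultrasound and 4 for nanosticker cells. With the length trend removed it was 1 for piezoelectric, and with DESeq2 or only the groups compared it was 1 for ultrasound. For ultrasound against piezoelectric it was 2, and 1 with DESeq2. With 1 library left out these counts ran from 0 to 1 (piezoelectric), 1 to 4 (ultrasound), 0 to 3 (ultrasound against piezoelectric) and 1 to 3 (departure from additivity, 2 in the full data). The cause was not tested. The counts for the nanosticker group against control, piezoelectric and ultrasound stayed within 3 to 4.

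Values that changed sign when 1 library was left out had not passed the test. Against control they ran, for piezoelectric, from -0.14 to 0.059 (Gjc1), -0.15 to 0.38 (Gjc3), -0.26 to 0.11 (Panx1) and -0.028 to 0.18 (Panx2), for ultrasound from -0.28 to 0.086 (Panx1) and -0.00014 to 0.21 (Panx2), and for nanosticker from -0.43 to 0.10 (Gjb2).

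Over all genes the calls were 33 for piezoelectric (10 to 1131 over the alternatives), 1031 for ultrasound (377 to 2192), 5378 for nanosticker (3774 to 6148), 502 for ultrasound against piezoelectric (157 to 1214), 4938 for nanosticker against ultrasound (3199 to 6251) and 3350 for the departure (2201 to 4713). With library size alone the nanosticker calls split into 2277 higher and 3221 lower, against 2837 and 2541. The replicate numbers only share a number across groups: deviations of same-numbered libraries correlated between -0.136 and 0.135, and with the replicate block the connexin count was 3 in place of 4 for nanosticker against control and unchanged in the other 6 comparisons. Depth limits Gjb6 and Gjb2, whose counts are at most 39 per library.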
